A study of Mus musculus with 12 samples.

Results

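The genes described here encode the NADPH oxidase of phagocytes and a related oxidase. They were chosen by symbol as Cybb, Cyba, Ncf1, Ncf4, Rac2 and Nox4. Of these 6 genes, 5 had rows in the table used and 1, Cyba, was not analysed here. The 5 genes stand among 22947 genes whose transcripts were summed. Every value is in FPKM, the fragments assigned to a transcript scaled to its length and to the size of the library.

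Epididymal white adipose tissue (eWAT) of male C57BL/6J mice was sequenced in 4 groups of 3 mice each, 12 libraries in all. The mice were 21 weeks old and had been on their diet for 16 weeks. The ND group ate the normal diet and the HFD group ate the high-fat diet. The CLE group ate the high-fat diet with 1.5% (w/w) of an ethanol extract of chrysanthemum leaf, and the LU group ate it with 0.003% (w/w) of luteolin, a plant flavonoid. The HFD, CLE and LU groups therefore shared the high-fat diet, and ND mice had neither supplement. The mice carried no transgene, and the methods describe the sequenced animals as representative mice of each group. Whole tissue was extracted, so adipocytes, vessels and immune cells all contributed RNA. Fewer cells of a type and less RNA per cell cannot be told apart in such samples.

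A letter R stands in the titles of 4 libraries (ND 3, ND 4, CLE 4 and LU 2) and in none of the HFD titles, and its meaning was not given in the sources used here. ND mouse 4 was read from a column headed MD4, an assignment inferred from its place and number. The total over genes was 435095 to 455040 FPKM per library, and the median ratio to the geometric mean library was 0.964 to 1.03. Over all deposited transcripts, also those not summed here, the total was 1.29e+06 to 6.41e+06 FPKM per library. The even totals thus hold for the summed genes only. The number of reads behind a value is unknown, because the deposited FPKM are estimates and not multiples of a read. Markers of adipocytes were abundant in every library, with a summed level of 15933 FPKM or more, and 3 of 5 epididymis markers were under 1 FPKM in all 12 libraries.

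The phagocyte oxidase makes superoxide by passing electrons from NADPH to oxygen across a membrane. Its catalytic subunit gp91phox, encoded by Cybb, sits in the membrane with p22phox, the product of Cyba. On stimulation, cytosolic subunits that include p47phox (Ncf1) and p40phox (Ncf4) move from the cytosol to the membrane together with the GTPase RAC2. Inherited loss of the subunits causes chronic granulomatous disease, in which phagocytes fail to kill ingested microbes. Nox4 encodes a separate catalytic subunit that also pairs with p22phox but needs none of the cytosolic subunits, releases mainly hydrogen peroxide, and is made by non-phagocytic cells such as fibroblasts, smooth muscle cells and adipocytes. Nox4 is thus no subunit of the phagocyte enzyme, and it is described apart from the other genes below. Macrophages are the main phagocytes of adipose tissue, and their number is known to rise in obesity.

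The promoters of Cybb, Ncf1 and Nox4 are printed so that genes that moved together can be set beside one that moved little. They are RefSeq sequences of GRCm38.p6, from 250 bases before to 50 bases after the start site, and 3 of the 5 genes had an entry in the table of promoters. The Cybb window is chrX:9469275-9469574 on the minus strand, the Ncf1 window is chr5:134229576-134229875 on the minus strand and the Nox4 window is chr7:87246399-87246698 on the plus strand. The RefSeq start site was also the first base of the most abundant transcript of each of these genes in the deposited table. Capitals mark matches to GAGGAA, a form of the site bound by PU.1, a transcription factor of myeloid cells, read on both strands. Shorter or other forms of the site were not searched.
Cybb: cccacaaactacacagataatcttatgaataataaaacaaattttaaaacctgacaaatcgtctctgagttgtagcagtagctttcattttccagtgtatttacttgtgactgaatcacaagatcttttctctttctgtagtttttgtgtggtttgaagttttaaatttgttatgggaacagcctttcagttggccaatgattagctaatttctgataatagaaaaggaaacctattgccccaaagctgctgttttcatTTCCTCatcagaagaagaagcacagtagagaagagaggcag
Ncf1: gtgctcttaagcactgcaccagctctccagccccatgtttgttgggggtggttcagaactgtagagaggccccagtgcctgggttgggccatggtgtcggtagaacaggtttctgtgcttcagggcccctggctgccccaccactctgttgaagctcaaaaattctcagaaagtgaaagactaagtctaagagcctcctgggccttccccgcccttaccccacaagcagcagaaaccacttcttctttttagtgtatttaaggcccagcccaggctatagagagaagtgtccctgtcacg
Nox4: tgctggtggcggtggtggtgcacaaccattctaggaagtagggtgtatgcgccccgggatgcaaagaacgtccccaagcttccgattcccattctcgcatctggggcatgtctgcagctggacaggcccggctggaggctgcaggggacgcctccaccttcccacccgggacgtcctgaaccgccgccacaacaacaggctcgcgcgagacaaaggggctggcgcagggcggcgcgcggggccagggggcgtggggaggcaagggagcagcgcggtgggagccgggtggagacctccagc
The Cybb window held 1 such match, TTCCTC on the printed strand, which begins at base 10 after the start site. It also held TGAATCA at base -139, a match to TGANTCA, the AP-1 letters as searched with any base at N. CCAAT was at base -56, and neither match overlaps the other or the capitals. The fourth motif searched was TATAAA, which the Cybb window did not hold. The Ncf1 and Nox4 windows held 0 matches to any of the 4 motifs. Among 32851 promoters of the same length, 28.3% held the PU.1 letters, 7.81% the AP-1 letters, 37.4% the CCAAT box and 13.6% the TATA box, on either strand. A match describes letters only, and the RNA libraries hold no measure of binding at these windows.

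Cybb (ENSMUSG00000015340, GRCm38 chrX:9435252-9487771, minus strand) had the highest level of the 5 genes in every HFD mouse. It was 7.07, 7.65 and 4.75 FPKM in ND mice 2, 3 and 4, and 91.7, 71.0 and 72.1 FPKM in HFD mice 12, 15 and 18. It was 14.4, 18.4 and 19.9 FPKM in CLE mice 2, 4 and 11, and 24.1, 18.2 and 21.5 FPKM in LU mice 2, 3 and 8. Every HFD mouse was above every other mouse, and every CLE and LU mouse was above every ND mouse. The CLE and LU ranges overlapped. The group means were 6.49 ± 1.53 FPKM in ND, 78.3 ± 11.7 in HFD, 17.6 ± 2.86 in CLE and 21.3 ± 2.95 in LU (SD, n = 3 each).

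Ncf1 (ENSMUSG00000015950, GRCm38 chr5:134220053-134229625, minus strand) encodes p47phox, the organizer that brings the cytosolic subunits to the membrane. It was 5.36, 8.90 and 4.44 FPKM in the ND mice, in the same order as above, and 31.2, 31.5 and 24.6 FPKM in the HFD mice. It was 7.17, 9.26 and 13.7 FPKM in the CLE mice and 13.7, 10.6 and 12.6 FPKM in the LU mice. The HFD mice were again above all others. CLE mouse 2 was within the ND range, so ND and CLE overlapped.

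Ncf4 (ENSMUSG00000071715, GRCm38 chr15:78244801-78262580, plus strand) encodes p40phox, which binds a lipid of the phagosome membrane. It was 2.64, 4.28 and 2.65 FPKM in the ND mice and 17.8, 19.1 and 19.1 FPKM in the HFD mice. It was 2.70, 6.25 and 7.47 FPKM in the CLE mice and 8.37, 7.84 and 7.98 FPKM in the LU mice. CLE mouse 2 was at the level of the ND mice, while the other two CLE mice were above them. The 3 LU mice lay within a narrow range above all CLE mice.

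Rac2 (ENSMUSG00000033220, GRCm38 chr15:78559167-78572783, minus strand) encodes the Rac GTPase of blood cells. It was 3.49, 5.15 and 3.26 FPKM in the ND mice and 17.9, 18.2 and 17.1 FPKM in the HFD mice. It was 5.41, 5.92 and 8.01 FPKM in the CLE mice and 7.37, 9.65 and 8.52 FPKM in the LU mice. The groups stood in the order ND, CLE, LU and HFD, and only CLE and LU overlapped. The same order of group means held for Cybb, Ncf1 and Ncf4.

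Nox4 (ENSMUSG00000030562, GRCm38 chr7:87246096-87398710, plus strand) had the lowest level of the 5 genes in every mouse. It was 0.837, 0.843 and 1.40 FPKM in the ND mice and 2.42, 1.64 and 1.69 FPKM in the HFD mice. It was 1.17, 1.90 and 1.57 FPKM in the CLE mice and 1.44, 1.52 and 0.992 FPKM in the LU mice. The HFD mice were above the ND and the LU mice, and the CLE range overlapped those of all 3 other groups. Its mean order was ND, LU, CLE and HFD, with overlap between each of the neighbouring groups.

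**Figure D1:**
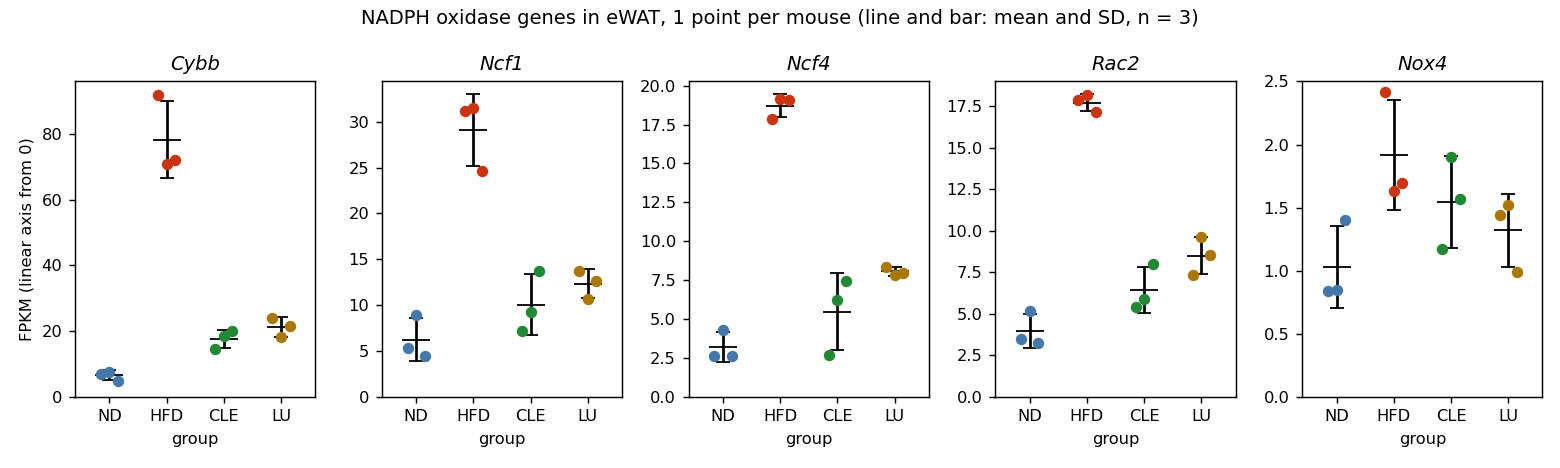
FPKM of Cybb, Ncf1, Ncf4, Rac2 and Nox4 in each mouse (points, linear axis from 0), with the mean and SD of each group of 3 as line and bar. The HFD points lie between 71.0 and 91.7 FPKM for Cybb, where all other points are at 24.1 FPKM or below, while the Nox4 groups lie close together.

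HFD was compared with ND to find which oxidase genes moved with the diet. All 4 phagocyte oxidase genes rose. Cybb rose by a log2 fold change of 3.42 (SE 0.18, adjusted p = 5.6e-07), a ratio of mean FPKM of 12.1. Ncf4 rose by 2.26 (SE 0.25), Ncf1 by 2.10 (SE 0.24) and Rac2 by 1.93 (SE 0.16), with adjusted p between 2.8e-06 and 2.8e-05. Nox4 was higher by 0.53 (SE 0.15, adjusted p = 0.014), which is under the fold change of 1.5 required for a call. Its 95% interval of 0.19 to 0.86 lay below the interval of Rac2, 1.59 to 2.28. Fold changes here are of FPKM + 1, so the change of a gene at low FPKM such as Nox4 is understated. The tests were made by limma over 12775 genes with Benjamini-Hochberg adjustment. A call required an adjusted p below 0.05 together with a fold change above 1.5.

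In this contrast 4 of the 5 genes were called higher and 0 lower, against 14.9% of all genes tested called higher and 10.8% called lower. All 5 had HFD mice above all ND mice, which was so for 30.2% of all genes tested. Nox4 was called under a pseudocount of 0.1, where its log2 fold change was 0.85, and with the letter R as a covariate (0.66). It was also called without ND mouse 4 (0.65) and without HFD mouse 15 (0.59). Leaving out the 4 libraries with that letter keeps ND mouse 2 as the only ND mouse, with no spread within ND. Cybb was then higher by 3.29, Ncf4 by 2.43, Ncf1 by 2.23, Rac2 by 2.06 and Nox4 by 0.66. With 3 mice against 3, an exact two-sided permutation test of a single gene cannot go below p = 0.1, and each of the 4 phagocyte oxidase genes was at that value.

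CLE was compared with HFD to find what the extract changed in mice on the high-fat diet. All 4 phagocyte oxidase genes fell. Cybb fell by 2.10 on the log2 scale (SE 0.18, adjusted p = 2.2e-05), to 0.224 times the mean FPKM of HFD. The differences were -1.69 for Ncf4 (SE 0.25), -1.48 for Ncf1 (SE 0.24) and -1.35 for Rac2 (SE 0.16), with adjusted p between 9.3e-05 and 0.00071. Nox4 differed by -0.20 (95% interval -0.53 to 0.14, adjusted p = 0.36). The share called lower was 4 of 5 genes, against 10.1% of all genes tested, and 0 of 5 were called higher, against 6.33%. The same 4 genes had CLE mice below all HFD mice, which was so for 26.2% of all genes tested. Without the libraries with the letter R the 4 differences were between -2.13 (Cybb) and -1.30 (Rac2), and all were called.

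LU was compared with HFD to ask the same of luteolin. Cybb fell by 1.83 on the log2 scale (SE 0.18, adjusted p = 0.00012), to 0.272 times the mean FPKM of HFD. The differences were -1.17 for Ncf1 (SE 0.24, adjusted p = 0.0044), -1.12 for Ncf4 (SE 0.25, adjusted p = 0.0073) and -0.98 for Rac2 (SE 0.16, adjusted p = 0.0012), all called lower. Nox4 differed by -0.33 (95% interval -0.67 to 0.01, adjusted p = 0.14). Of the 5 genes 4 were called lower, against 7.64% of all genes tested, and 0 higher, against 4.81%. All 5 had LU mice below all HFD mice, which was so for 22.1% of all genes tested. Without the libraries with the letter R the 4 differences were between -1.92 (Cybb) and -0.90 (Rac2), and all were called. These contrasts share the HFD mice with each other and with HFD against ND, so they are not independent of one another.

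CLE and LU were set against each other at the amounts fed, which were 1.5% of an extract and 0.003% of a compound and are not matched doses. None of the 5 genes was called, against 0.00783% of all genes tested (1 gene, and 672 at an unadjusted p under 0.05). The Ncf4 difference was -0.57 (95% interval -1.12 to -0.02) and the 3 CLE mice were below the 3 LU mice. It rests on CLE mouse 2, without which it was -0.21 (SE 0.15). With the mouse number as a replicate block it was -0.81, in a fit that left out CLE mouse 11, LU mouse 8 and the HFD mice. Rac2 differed by -0.36 (-0.71 to -0.02), Ncf1 by -0.31 (-0.83 to 0.21), Cybb by -0.27 (-0.65 to 0.12) and Nox4 by 0.13 (-0.20 to 0.47). The adjusted p was 0.89 to 0.93 for the 5 genes. The intervals of Ncf1, Cybb and Nox4 include 0, and they do not show that CLE and LU acted alike.

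CLE and LU mice were also compared with ND mice, to see how far each gene stood from the normal diet. Cybb was higher in CLE than in ND by 1.32 on the log2 scale (SE 0.18, adjusted p = 0.0074) and in LU by 1.59 (SE 0.18, adjusted p = 0.0012). It was the 1 gene of 5 called in CLE against ND, where 2.06% of all genes tested were called higher. Without the libraries with the letter R, which leaves ND mouse 2 alone for ND, Cybb was higher in CLE by 1.15, an effect size given without a call. The call of Cybb in CLE against ND was lost in a fit of the 2 groups alone (adjusted p = 0.086). It was also lost with the most abundant transcript in place of the sum (adjusted p = 0.0515). Rac2 was higher in CLE by 0.59 (adjusted p = 0.054), Ncf1 by 0.62 (adjusted p = 0.15), Ncf4 by 0.56 (adjusted p = 0.20) and Nox4 by 0.33 (adjusted p = 0.22). Without CLE mouse 2, Ncf4 was higher by 0.93 (adjusted p = 0.012) and Rac2 by 0.69 (adjusted p = 0.045), and both were called. Without ND mouse 3, Rac2 was also called, at 0.75 (adjusted p = 0.030).

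In LU against ND 4 of the 5 genes were called higher, against 4.97% of all genes tested. Ncf4 rose by 1.14 (SE 0.25, adjusted p = 0.013), Rac2 by 0.95 (SE 0.16, adjusted p = 0.0037) and Ncf1 by 0.92 (SE 0.24, adjusted p = 0.026), and Nox4 was higher by 0.20 (adjusted p = 0.44). Without the libraries with the letter R, which leaves ND mouse 2 alone for ND, Ncf1 was higher by 0.99 and Ncf4 by 1.29. These are effect sizes given without a call. Leaving out ND mouse 2 left 2 calls, since Ncf1 was then at an adjusted p of 0.088 and Ncf4 at 0.053. The call of Ncf1 was further lost without ND mouse 4 (adjusted p = 0.079), without LU mouse 2 (0.087), without LU mouse 8 (0.082) and with no filter on low values (0.059). Ncf4 lost its call when the splice forms assembled from the reads were left out of the sum, at 0.76 (adjusted p = 0.063).

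**Figure D2:**
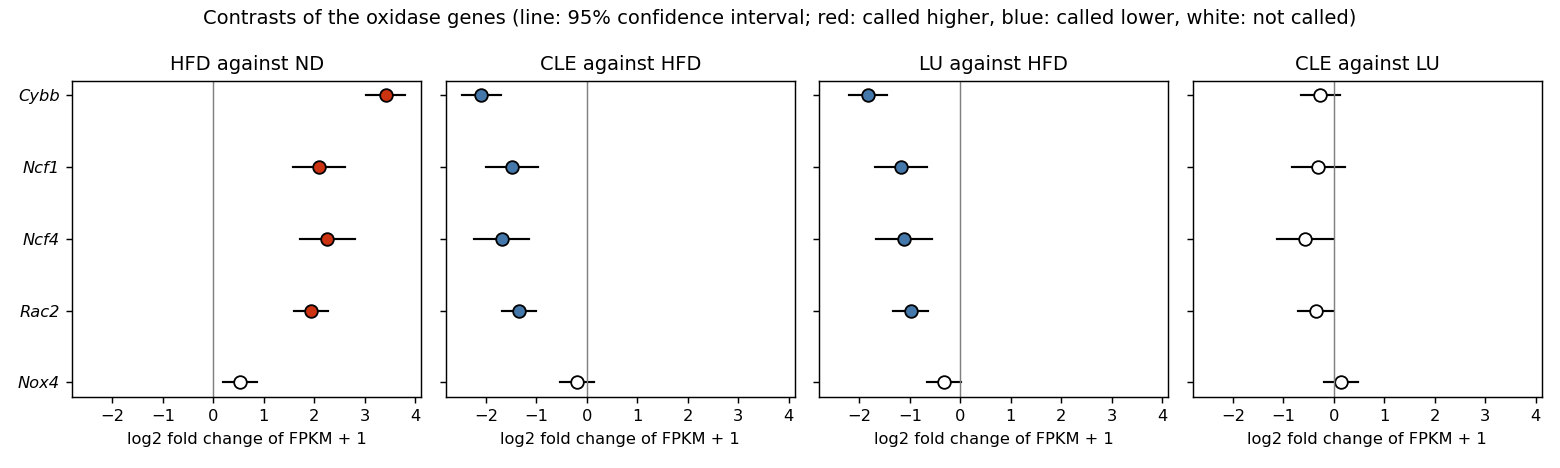
Log2 fold change of FPKM + 1 (horizontal axis) of 5 oxidase genes in 4 contrasts, with 95% confidence intervals from limma as lines. Cybb, Ncf1, Ncf4 and Rac2 are called higher in HFD against ND and lower in both supplement groups, Nox4 is not called, and no gene is called in CLE against LU.

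The change of Cybb was larger than that of its partner subunits, and its ratio to each within a library puts the same observation per mouse. It was chosen after the data were seen and is given as a description with no test. The ratio of Cybb to Ncf1 was 0.860 to 1.32 in ND, 2.26 to 2.94 in HFD, 1.46 to 2.01 in CLE and 1.70 to 1.75 in LU. The ratio of Cybb to Rac2 was 1.46 to 2.03 in ND, 3.90 to 5.13 in HFD, 2.49 to 3.10 in CLE and 1.89 to 3.27 in LU. For both divisors the HFD mice were above all other mice. The ratio of Cybb to Ncf4 did not separate CLE from HFD, with 2.67 to 5.33 in CLE and 3.71 to 5.14 in HFD. The highest CLE value, 5.33, was in mouse 2, which had the lowest Ncf4 level of its group.

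Phagocyte markers moved with the phagocyte oxidase genes in HFD against ND and in each supplement against HFD. The markers were Adgre1, Cd68, Csf1r, Itgam, Lyz2, Cd14, Aif1 and Fcer1g. All 8 rose in HFD against ND and fell in CLE against HFD, and 7 of 8 fell in LU against HFD, where Aif1 differed by -0.50 (adjusted p = 0.077). Their summed level was 318 to 493 FPKM in ND, 2258 to 2583 in HFD, 563 to 844 in CLE and 910 to 1034 in LU, with no overlap between the groups. Most of this sum was Lyz2, with a mean of 289 FPKM in ND, 1667 in HFD, 517 in CLE and 717 in LU. Against ND, 5 of 8 markers were called higher in CLE and 6 of 8 in LU, beside 2.06% and 4.97% of all genes tested. The Cd14 mean was below that of ND (13.4 FPKM) in CLE (9.54) and LU (10.4), and Aif1 differed by 0.04 in CLE against ND. Single markers rose by 0.60 (Cd14) to 4.08 (Cd68) in HFD against ND, a range that holds the differences of all 4 phagocyte oxidase genes. The part of phagocyte number in the result was not tested.

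Each gene was therefore given relative to the mean log2(FPKM + 1) of the 8 markers, which rose by 2.54 in HFD against ND. Cybb was higher in HFD than in ND by 0.87 relative to the markers, with a range of 0.59 to 1.09 over 17 other settings. The relative difference was -0.61 for Rac2 (-0.89 to -0.39), -0.45 for Ncf1 (-0.73 to -0.23) and -0.29 for Ncf4 (-0.59 to -0.07). In CLE against HFD the relative difference was -0.24 for Cybb (-0.54 to -0.12), 0.51 for Rac2 (0.40 to 0.63), 0.38 for Ncf1 (0.26 to 0.50) and 0.17 for Ncf4 (0.02 to 0.41). In LU against HFD it was -0.46 for Cybb (-0.59 to -0.34), 0.38 for Rac2 (0.27 to 0.51), 0.25 for Ncf4 (0.15 to 0.37) and 0.20 for Ncf1 (0.08 to 0.32). Cybb thus moved more than the marker mean and the other 3 genes moved less, as point values, in all 3 contrasts and under all 17 settings. The settings move several of these values by over 1.5 times, and the exact permutation p was 0.1 or above throughout. For the relative value of Ncf4 the CLE and HFD mice overlapped (exact permutation p = 0.6). The LU and HFD mice overlapped for that of Ncf1 (exact permutation p = 0.4). All values of a contrast share the same 8 markers. Cd68 (4.08), Adgre1 (3.92) and Itgam (3.45) rose more than Cybb (3.42) in HFD against ND. The same markers fell more in CLE against HFD (-2.60, -2.69 and -2.45), as did Cd68 (-2.06) and Adgre1 (-2.01) in LU against HFD. In each contrast the remaining markers moved less than Cybb.

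**Figure D3:**
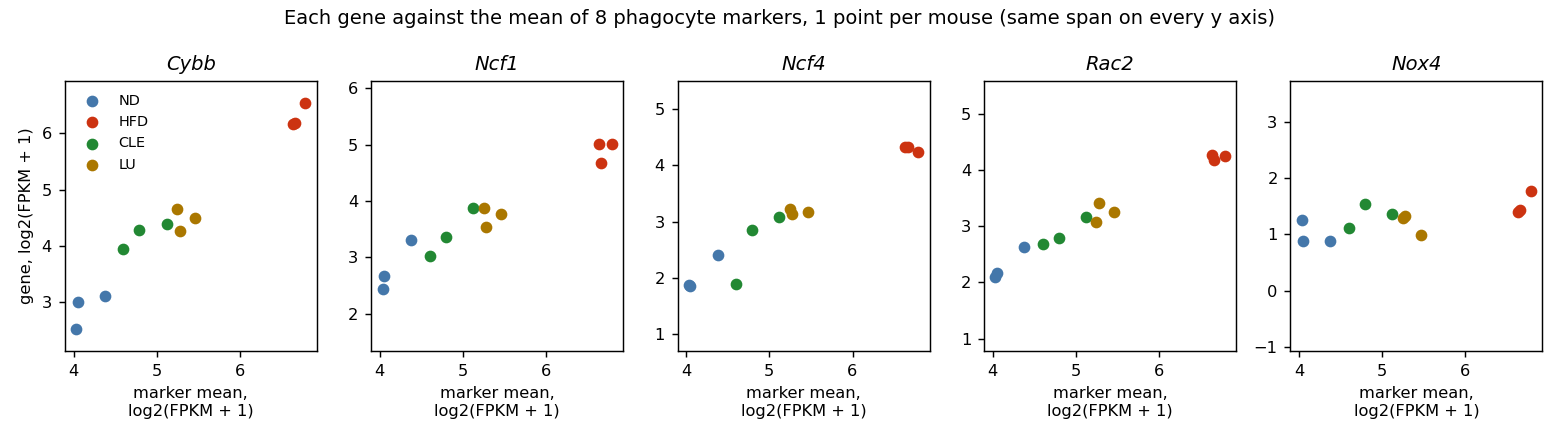
Level of each gene (vertical axis, log2(FPKM + 1)) against the mean of the 8 phagocyte markers (horizontal axis, log2(FPKM + 1)), 1 point per mouse, with the same span on each vertical axis. The ND, CLE, LU and HFD mice follow each other along the marker axis, and the spread between groups is wide for Cybb and narrow for Nox4.

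Markers of other cells moved less evenly. Of 8 neutrophil markers 3 were tested, of which S100a8 rose by 3.26, Csf3r rose by 1.32 and S100a9 fell by 0.79 in HFD against ND, and Mpo, Ngp, Camp and Cxcr2 were under 1 FPKM in every library. Elane, the remaining gene of the list, was not tested and had 1.11 ± 0.197 FPKM in ND and 0.345 ± 0.176 in HFD (SD, n = 3 each). The summed neutrophil list was 8.34 to 16.7 FPKM in ND, 74.0 to 124 in HFD, 14.96 to 29.1 in CLE and 23.4 to 56.0 in LU. Most of this sum was S100a8, with 4.84 to 14.1 FPKM in ND, 69.7 to 118 in HFD, 12.7 to 26.0 in CLE and 20.2 to 53.0 in LU. The B cell list reached at most 6.61 FPKM and the T cell list at most 7.70 FPKM in any library. For Nox4 the adipocyte, fibroblast and smooth muscle lists are the cells named above. In HFD against ND 5 of 6 adipocyte markers fell and Lep rose, 1 of 4 fibroblast markers rose and 3 were not called, and of 3 smooth muscle markers tested 1 fell. Endothelial markers were not called (4 of 4), and 3 of 3 mesothelial markers fell. In CLE against HFD 5 of 6 adipocyte, 2 of 4 endothelial, 1 of 3 smooth muscle and 1 of 3 mesothelial markers rose, while Lep and 1 of 4 fibroblast markers fell. In LU against HFD 2 of 6 adipocyte, 3 of 4 endothelial, 1 of 3 smooth muscle and 1 of 3 mesothelial markers rose, and Lep and 1 of 4 fibroblast markers fell. The part of these cells in the changes of the phagocyte oxidase genes and in the level of Nox4 was not tested.

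Other genes of the oxidase pathway were taken from a list of 31, made of 14 partners and 17 activators, of which 24 passed the filter of 1 FPKM in 3 libraries. In HFD against ND 17 of the 24 rose and 0 fell, with a median log2 fold change of 1.32 beside -0.02 over all genes tested. In CLE against HFD 15 fell and 0 rose, with a median of -0.85 beside 0.01. In LU against HFD 12 fell and 0 rose, with a median of -0.59 beside 0.03. The list was composed with earlier results of these data known.

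Among the partners, Hvcn1, Duoxa1 and Cybc1 rose in HFD against ND. Hvcn1, a proton channel that compensates the charge moved by the oxidase, rose by 1.82, and differed from HFD by -1.49 with CLE and by -1.10 with LU, both called. Cybc1, which encodes the chaperone of gp91phox and p22phox, rose by 0.80 (24.1 against 13.3 FPKM) and fell by 0.60 with CLE, and with LU it differed by -0.54, which was under the required fold change. Duoxa1, the maturation factor of a dual oxidase, rose by 1.38 and was not called with CLE (-0.61) or LU (-0.33). The catalytic genes Nox1, Nox3, Duox1 and Duox2 and the genes Noxa1, Noxo1 and Duoxa2 were under 1 FPKM in every library. Rac1, the Rac GTPase found in most cells, had 138 ± 6.15 FPKM in ND and 159 ± 4.51 in HFD (SD, n = 3 each) and differed by 0.20. Poldip2, a reported partner of Nox4, differed by -0.29.

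Among the genes listed as activators, 14 of 17 rose in HFD against ND, against 14.9% of all genes tested. The inhibitor Arhgdib and its relative Arhgdia were among the 14. Dock2 and Vav1, exchange factors that load Rac with GTP, rose by 3.21 and 2.55. Both fell with the supplements, to differences from HFD of -2.22 and -1.64 with CLE and of -1.76 and -1.47 with LU. Prkcb and Prkcd, kinases that phosphorylate p47phox, rose by 2.29 and 1.96, while Prkca of the same family differed by -0.16 and was not called. The tyrosine kinase Syk rose by 2.22, and its difference from HFD was -1.61 with CLE and -1.07 with LU, both called. Pik3cg, a lipid kinase of leukocytes, rose by 1.74 from 1.52 to 7.39 FPKM. Arhgdib, the leukocyte inhibitor that holds Rac in the cytosol, rose by 1.65, and its broadly expressed relative Arhgdia rose by 0.69. Pak1 rose by 1.99, while Pak2 differed by 0.13 and was not called. Vav2 differed by 0.54 and was also not called, its fold change being under 1.5.

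**Figure D4:**
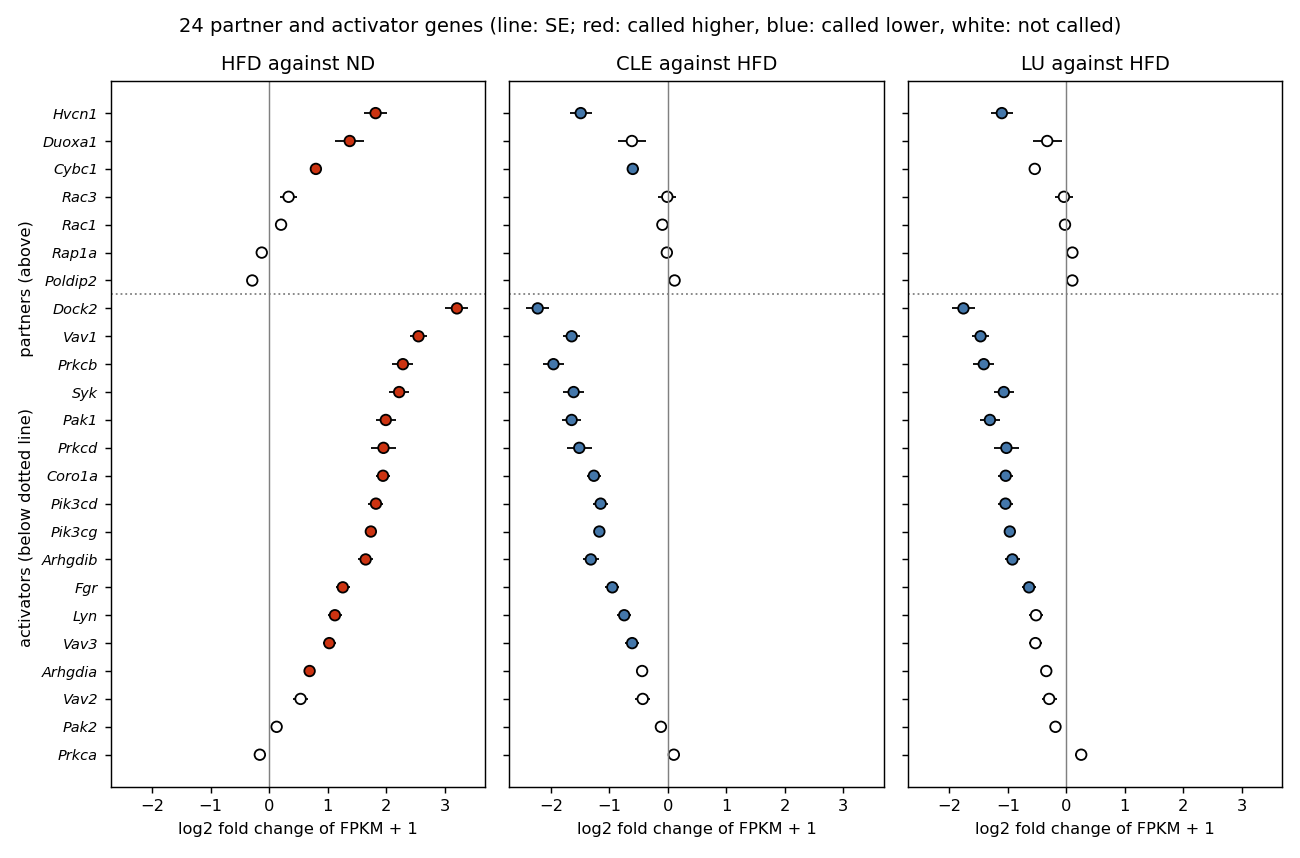
Log2 fold change of FPKM + 1 (horizontal axis, lines are SE) of 24 partner and activator genes in 3 contrasts, ordered by HFD against ND within each list. The points of HFD against ND reach 3.21 for Dock2, those of both supplements lie mostly below 0, and Rac1, Rap1a, Pak2 and Prkca stay near 0.

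The transcripts behind each gene differed in how firmly they were assigned. Of the summed FPKM of Cybb, 77.8% lay in ENSMUST00000015484 and 18.8% in ENSMUST00000170885, a protein-coding form that starts 18447 bases upstream. Ncf1 had 77.2% in ENSMUST00000111275 and Rac2 83.8% in ENSMUST00000043214. Ncf4 was the most divided of the 4, with 33.4% in ENSMUST00000096357 and 51.4% in splice forms assembled from the reads. For Nox4, 53.4% lay in the protein-coding ENSMUST00000032781 and 37.8% in ENSMUST00000126887, which is annotated as a target of nonsense-mediated decay.

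The protein-coding form of Nox4 was near 0 in ND mouse 3 (0.00533 FPKM), HFD mouse 15 (2.97e-09) and LU mouse 3 (2.2e-09), where the other form held 96.9% or more of the gene. In ND mouse 4 it held 99.9% of the gene. These swaps occurred within groups, so the sum was used and no difference between Nox4 transcripts is given. With the most abundant transcript in place of the sum, Nox4 was 0.15 higher in CLE than in HFD (adjusted p = 0.83), the opposite sign to the sum.

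**Figure D5:**
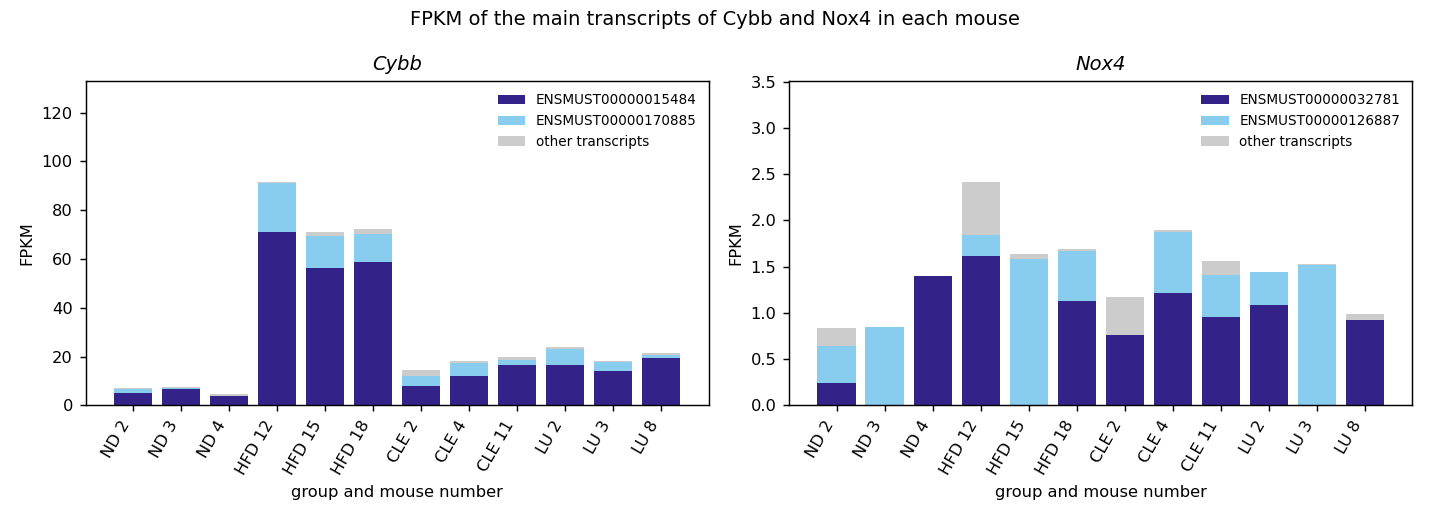
FPKM (vertical axis, from 0) of the 2 most abundant transcripts and all other transcripts of Cybb and Nox4 in each mouse. The main Cybb transcript is the larger part in all 12 mice, while the Nox4 transcripts trade places between mice of the same group.

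Genes whose pattern over the 12 libraries was most like that of each gene were found by Pearson's r of log2(FPKM + 1), given as a description. The libraries share diet groups, so any gene that moves with the diet scores high. Cybb was most like Pik3cg (r = 0.993), March1 (0.993) and Ptprj (0.993). Ncf1 was most like Sla (0.986), P2ry6 (0.986) and Slamf7 (0.983), and Ncf4 was most like Il10ra (0.990), Akna (0.990) and Pstpip1 (0.987). Rac2 was most like Arhgap9 (0.996), Arhgap45 (0.996) and Fcer1g (0.994). Nox4 reached 0.875 with Ccdc93, Medag and Fyn. Between the 4 phagocyte oxidase genes r was 0.949 to 0.973, and between Nox4 and these it was 0.624 to 0.700.

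Deviations from the group means remove the diet from this measure. Ncf1 then had r = 0.791 with Ncf4, 0.788 with Cybb and 0.751 with Rac2, while Cybb had 0.598 with Ncf4 and 0.408 with Rac2. Nox4 had values of -0.10 to 0.22 with the other 4 genes. The closest genes were Sh3bp1 (0.924) for Cybb, Tbc1d10b (0.959) for Ncf1, Cxcr4 (0.957) for Ncf4, Arhgap9 (0.960) for Rac2 and Trim30d (0.935) for Nox4. Each is the highest r over the 12775 genes tested, from 12 libraries with 4 group means removed. The highest of so many values would be large even without a link, and no test was made. Arhgap9 thus headed the list of Rac2 by both measures. ND mouse 3 and CLE mouse 2 show the shared deviations in the values above, since ND mouse 3 had the highest level of its group and CLE mouse 2 the lowest for all 4 phagocyte oxidase genes. The phagocyte marker mean was also highest in ND mouse 3 (4.38) and lowest in CLE mouse 2 (4.60) within their groups.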

How the data were processed

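RNA of eWAT was measured in 3 mice of each of 4 groups, mapped from the diet in the sample labels. The authors made paired-end libraries of poly(A) RNA and estimated transcript levels with Cufflinks 2.2.1, after alignment with TopHat2 2.0.12 and Bowtie2 2.2.3 per the submitters' processing notes. They deposited FPKM for 152210 transcripts, known or assembled. The genome build was not given in the sources used here. Of 78786 known transcripts, 77000 were found in GENCODE M21 (GRCm38), 87.5% of these with the same start and end.

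There were 15 FPKM columns, of which 12 were used and 3 belong to none of the samples. Columns of the authors' own calls between groups were not used, and their count test was not repeated, since no counts were at hand. Known transcripts and splice forms assembled around them were summed per gene. A gene was tested if 3 libraries or more reached 1 FPKM, which left 12775. The test was limma (version 3.58.1, R version 4.3.3) of log2-transformed FPKM + 1, with 12 libraries in 1 fit, no covariate and Benjamini-Hochberg adjustment per contrast. The spread is that between mice. Exact permutation tests used scipy 1.17.1. The planned ratio of Cybb to Cyba was replaced by ratios to Ncf1, Ncf4 and Rac2. Depth is unknown.

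Genes named are the 6 chosen genes, list genes by their calls, and the 3 most similar genes of each chosen gene. Some genes of the lists are not reported here and were left out of their counts. The genes and lists were chosen with earlier results of these data known. The alternatives varied the pseudocount, filter, scaling, libraries, moderation, weights, the letter R, the transcripts summed, the call rule, the markers and the replicate block.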

Additional observations from a re-analysis of the deposited data

How the results depend on the processing

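The calls of Cybb, Ncf1, Ncf4 and Rac2 in HFD against ND, CLE against HFD and LU against HFD held under all 26 alternatives, with Cybb between 3.24 and 3.59 in HFD against ND. The contrasts with ND were less firm. Without the 4 libraries that carry the letter R, ND mouse 2 is the only ND mouse, so that setting has no spread within ND. Calls in that setting are therefore not listed for CLE or LU against ND. In CLE against ND, where 1 gene was called, 2 were called with a mean of at least 5 FPKM, with equal totals or with a trend in the moderation. Among the settings listed, none was called with the 2 groups alone in the fit, with the most abundant transcript, or with the replicate block. Leaving out 1 library at a time gave 1 to 3 calls, 2 without ND mouse 3, where Rac2 gained the call, and 3 without CLE mouse 2, where Ncf4 and Rac2 did. In LU against ND, where 4 genes were called, 2 were called with the replicate block. Leaving out 1 library there gave 2 to 4, the lowest without ND mouse 2. Mouse numbers are shared by ND, CLE and LU mice and by no HFD mouse. The block could therefore be fitted in these 2 contrasts and, added after seeing the data, in CLE against LU. In CLE against LU 0 genes were called, as without the block. The block fit left out the HFD mice, CLE mouse 11 and LU mouse 8, whose numbers no other mouse shared. The deviations of same-numbered mice correlated at -0.10 to 0.19. Differently numbered mice were not compared, so these values do not settle whether the numbers pair mice. By adjusted p alone, 1 partner or activator, Poldip2, was lower in HFD than in ND, where the fold change rule gave 0. Nox4 in CLE against HFD turned from -0.20 to 0.15 with the most abundant transcript, and in CLE against LU from 0.13 to -0.17 with the block. Of 789 recomputed log2 fold changes of the genes, 12 gained a call, 15 lost one and 2 changed sign. All 255 differences from the markers and all 72 ratios kept their sign. The cause of these changes was not tested. The ratio of Cybb to Cyba and its alternatives were not run. Depth is unknown, so no counting error can be given, also for the low values of Nox4.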
